A study of Mus musculus with 8 samples.

Results

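The small RNAs described here are those annotated to the L1_Mus, L1_Mm, L1VL, L1_Mur and L1_Rod repeats, names that repeat libraries give to L1 families of the mouse and rodent lineage. They were chosen by name alone, as every row of the series' list of distinct small RNA sequences whose annotation begins with L1_Mus, L1_Mur, L1_Mm, L1_Rod or L1VL. The rule took 91586 of 6246223 distinct sequences (1.47%), under 12 names. Of these, 69618 were 24 to 33 nt long, the length range of Piwi-interacting RNAs (piRNAs), which is 76.0% of the members and 1.43% of the 4883266 sequences of that length in the series.

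The sequences came from mouse testes, from which total RNA of 19 to 33 nt was selected. The 8 libraries made 8 groups of 1: testes homozygous or heterozygous for a Tdrd1 knockout at 18.5 days after conception, and testes homozygous or heterozygous for a Tdrd6 knockout at 18 days, at 25 days and at 6 weeks after birth. Every library therefore carried at least 1 mutant allele of Tdrd1 or Tdrd6, and no wild-type testis was among them. The list analysed pooled the sequences without naming the library of any of them, so homozygous and heterozygous testes and the ages could not be compared, and each sequence counted once however often it was read.

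L1 elements are retrotransposons that copy themselves through an RNA, and their full-length form encodes an RNA-binding protein (ORF1) and an endonuclease and reverse transcriptase (ORF2). In male germ cells, Piwi proteins loaded with piRNAs silence them, and loaded piRNAs usually begin with U, written T here. In the ping-pong cycle a piRNA guides the cutting of a transcript of the opposite strand between the bases paired with its positions 10 and 11, so the new 5′ end overlaps the guide by 10 nt and has A at position 10. TDRD1 and TDRD6 are Tudor-domain proteins that bind Piwi proteins.

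The arrangement is shown first at sites where the sequences mapped to 1 position and matched transcripts of exactly 1 gene. At 2 sites a sense and an antisense member overlapped by 10 nt at their 5′ ends, and capitals mark the 10 shared bases. The first, annotated L1_Rod, lies in the 3′ untranslated region of Csf2ra, a cytokine receptor gene, at chr19:61224456-61224484 on the minus strand (sense) and chr19:61224475-61224500 on the plus strand (antisense), GRCm38. Its sense member begins with T and its antisense member has A at position 10.
Csf2ra sense: TCCAACGTGCcttcatgatcaaagttcga
Csf2ra antisense: GCACGTTGGAttttatgacagtttgt
The second, annotated L1_Mus1, lies in D10Wsu102e at chr10:83396761-83396787 on the plus strand (sense) and chr10:83396744-83396770 on the minus strand (antisense). Both members begin with T and both have A at position 10, and sense variants of 29 and 30 nt share the 5′ end.
D10Wsu102e sense: TCAGTGGTAAgagcactctgcaggcca
D10Wsu102e antisense: TTACCACTGAgactcaggagagagctg
These 2 sites held 4 pairs of sequences at an overlap of 10 nt, and the other overlaps from 1 to 24 nt held between 0 and 3 pairs, so single sites were too few to show a preferred overlap.

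The richest 5′ ends of the 2 genes with most such members are shown as examples of 5′ ends with several 3′ ends, which were a minority of all ends. The first base, T, is in capitals. The L1_Mur3 end in 1700097M23Rik, at chr6:81894843-81894872 on the minus strand, was shared by 8 sequences of 24 to 31 nt, of which the one of 30 nt is printed. The L1_Mm end in D10Wsu102e, at chr10:83446204-83446232 on the plus strand, was shared by 5 sequences of 24 to 29 nt, of which the longest is printed, and 2 L1_Mus1 ends of that gene also had 5 each. All sequences at each of these ends differed in length.
1700097M23Rik end: Taaagaatcgtgtcctctgcaaaccagatc
D10Wsu102e end: Tgatgggtttccgtatgtactggctagtt

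L1_Mus1 was the most frequent name with 13949 sequences of 24 to 33 nt, followed by L1_Mus3 with 11901 and L1_Mus2 with 11580. L1_Mus4 had 5467, L1_Mm 5374, L1VL4 5060, L1_Mur2 3423, L1VL2 3108, L1VL1 3078, L1_Mur3 3013, L1_Mur1 2772 and L1_Rod 893. The other L1 lists had similar sizes, with 57568 sequences for the young L1 elements (L1Md_A, L1Md_T and L1Md_Gf, which hold the copies that still move), 64418 for L1Md_F, 88727 for Lx and 47907 for ancient L1 (L1M, L1P and HAL1). These are numbers of distinct sequences and not abundances. Intervals given below are exact 95% binomial intervals (Clopper-Pearson) that cover counting error only, as do the limits (3 counts of the total) given beside a count of 0. Overlapping sequences of 1 copy are not independent molecules, and with 1 pooled list there was no replicate and no test.

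The names differed most in how many genome positions their sequences had. Over all members 42.1% (41.8 to 42.5) mapped to 1 position, the median was 3 positions, and 18.2% mapped to more than 100. L1_Mm had the lowest share at 1 position, 21.3%, and the highest median, 30 positions. L1_Mus2 had 29.4% and a median of 3, and L1_Mus1 30.9% and a median of 7. The L1VL names had between 48.8% and 53.7%. L1_Mur1 had 63.5%, L1_Mur2 65.1%, L1_Mur3 88.4% and L1_Rod 96.0%. The other lists had 13.3% in young L1, 23.04% in L1Md_F, 74.5% in Lx and 94.7% in ancient L1, so young L1 lay below all 12 names.

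T was the first base of 74.1% (73.8 to 74.4) of the members, against 60.3% in young L1, 67.4% in L1Md_F, 75.5% in Lx and 74.7% in ancient L1. A stood at position 10 in 36.9% (36.6 to 37.3) of the members, against 45.2% in young L1, 44.1% in L1Md_F, 31.4% in Lx and 28.5% in ancient L1. The neighbouring positions of the members had A in 23.5% (position 9) and 25.97% (position 11). The members therefore lay between the young and the ancient lists in their share of A at position 10.

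Within the members, the names at the ends of the range for one base preference lay at or near the opposite end for the other. L1_Mm had the lowest share with T first, 70.5%, and the highest with A at position 10, 44.6% (43.2 to 45.9). L1_Rod and L1_Mur3 had the highest shares with T first, 83.2% and 82.3%. In L1_Rod A stood at position 10 in 29.1% (26.2 to 32.2), 2.46 percentage points above the mean of positions 9 and 11. L1_Mur3 had A at position 10 in 26.6% (25.0 to 28.2), a difference of -1.06 percentage points from the mean of positions 9 and 11, where L1_Mm had a difference of 19.02 points. The 3 L1VL names were alike, at 35.4% each. A shift of the same kind ran with the number of positions: sequences at 1 position had A at position 10 in 32.4% and T first in 78.8%, and those at more than 100 positions had A in 44.6% and T first in 64.2%. Names also differed among sequences at 1 position, where A stood at position 10 in 41.1% (38.2 to 44.04) of L1_Mm, 36.3% (34.9 to 37.8) of L1_Mus1 and 26.3% (24.6 to 27.97) of L1_Mur3, and in between 29.4% and 35.01% of the other 9 names.

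**Figure D1:**
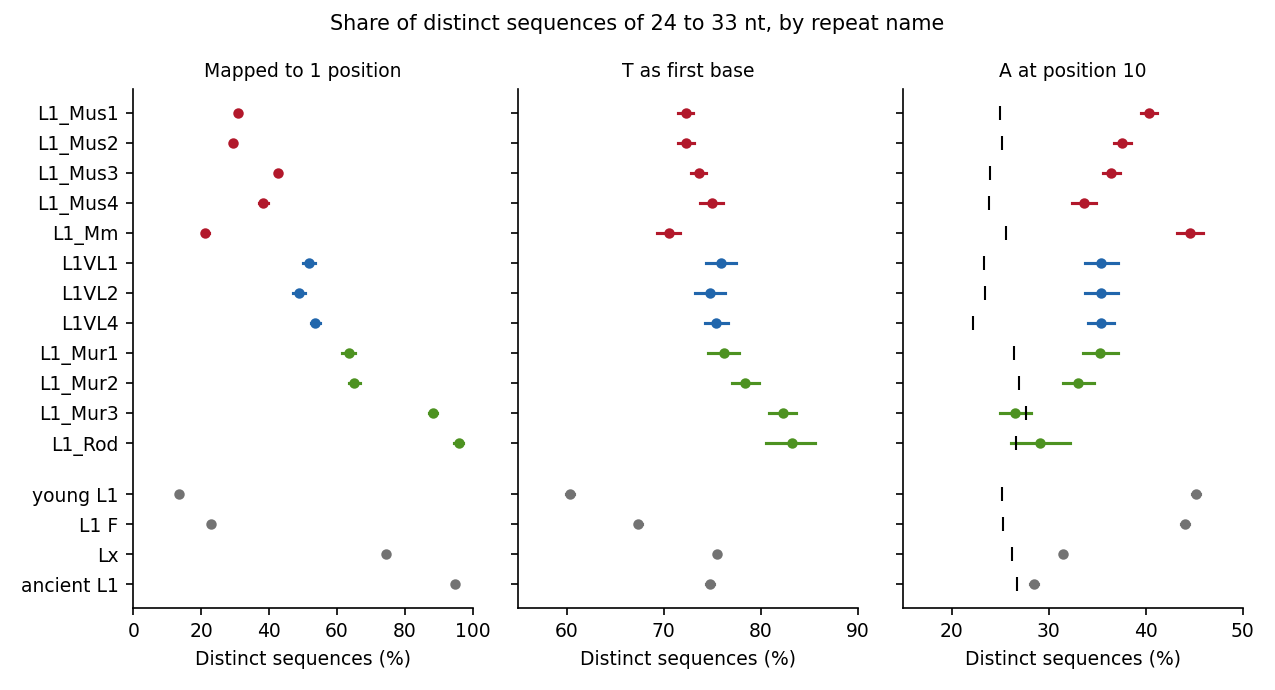
Share of distinct sequences of 24 to 33 nt that mapped to 1 position (left), began with T (middle) or had A at position 10 (right), for the 12 names (red L1_Mus and L1_Mm, blue L1VL, green L1_Mur and L1_Rod) and 4 other L1 lists (grey). Points are shares with 95% exact intervals, and black ticks are the mean share of A at positions 9 and 11; L1_Mm lies farthest above its tick of all names and L1_Mur3 lies below its own.

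A at position 10 was more frequent where T was not the first base, although most sequences with it began with T (64.1% of 25696, 63.5 to 64.7). Sequences that did not begin with T had A at position 10 in 51.2%, and those that began with T in 31.9%. The share was 54.8% after a first A, 50.6% after a first G and 46.3% after a first C. Among lengths, sequences of 29 nt had the highest share (41.8%) and those of 25 nt the lowest (29.1%).

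The L1_Mus and L1_Mm names had longer sequences than the other members. All 5 of them had their most frequent length at 29 nt, and all L1VL, L1_Mur and L1_Rod names at 27 nt, as did the 4 other L1 lists, although L1_Mus1 had nearly as many at 27 nt (2390) as at 29 nt (2406). Lengths of 29 and 30 nt made up 32.3% of L1_Mus and L1_Mm sequences, 24.5% of L1VL and 25.9% of L1_Mur and L1_Rod, and in the other lists 30.9% of young L1, 29.9% of L1Md_F, 24.4% of Lx and 25.04% of ancient L1. Lengths of 26 and 27 nt made up 28.6%, 38.4% and 37.6% of the same groups of names. The mean over all members was 27.98 ± 2.002 nt (SD over distinct sequences). Among sequences at 1 position the modal length of L1_Mus1 and L1_Mm was 27 nt instead, while L1_Mus2 and L1_Mus4 kept 29 nt and L1_Mus3 had 30 nt. Over all lengths, 15 nt was the most frequent length of L1_Mur3 (884 sequences, against 650 at 27 nt) and L1_Rod (311 against 196).

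**Figure D2:**
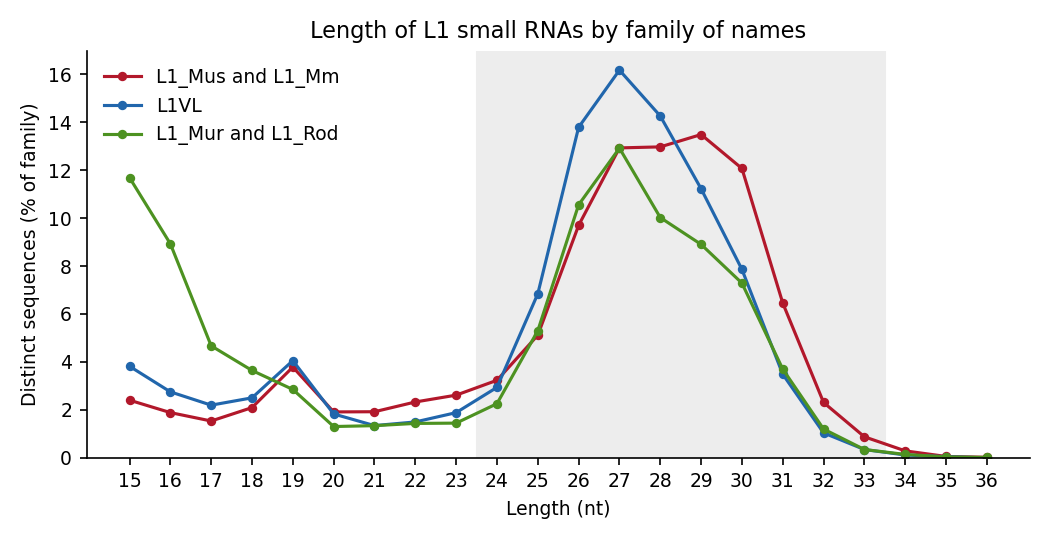
Length of all members from 15 to 36 nt, as the percent of distinct sequences of each family of names; the shaded band is 24 to 33 nt. L1_Mus with L1_Mm (red) peak at 29 nt, and L1VL (blue) and L1_Mur with L1_Rod (green) at 27 nt. At 19 nt the first and second have a smaller peak and the last a shoulder. The last also has 11.7% of its sequences at 15 nt, against 2.41% in the first and 3.82% in the second.

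Sequences with the same first 20 nt were taken to share a 5′ end, which gave 47617 ends. Most of them, 80.8%, had 1 sequence, 195 had more than 10 and the richest 2 had 41 each. An end with 1 sequence has 1 name, since each sequence carries 1 annotation. Of the 9150 ends with 2 or more sequences, 2847 (31.1%, 30.2 to 32.1) stood under at least 2 of the 12 names. Ends shared with L1Md_F numbered 3800, which is 7.98% of the members' ends and 9.28% of those of L1Md_F, and those shared with young L1 1961, which is 4.12% and 6.47%.

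Partners were then sought without coordinates, by comparing 10 bases at each overlap. Of the 47617 ends, 34.8% (34.3 to 35.2) had a partner among the members at an overlap of 10 nt, against a mean of 22.5% (SD 1.28) and a highest value of 24.4% at overlaps of 11 to 20 nt. Partners were most frequent for ends with A at position 10 and no T first, 61.5% at 10 nt against 28.6% at the other overlaps, and for ends with both T first and A at position 10, 50.7% against 21.7%. Ends with T first and no A at position 10 had partners in 25.3% against 20.2%. Ends with neither base had fewer at 10 nt than at the other overlaps, 17.4% against 25.4%. Since an A at position 10 pairs with the T that begins most sequences, base preferences by themselves raise the match at 10 nt, and the part they had in it was not tested.

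Each name was also taken by itself. In all 12 the share at 10 nt lay above the highest of the other overlaps, and it was between 1.77 times (L1_Mus3) and 2.70 times (L1_Rod) their mean. The L1_Rod value rested on 33 of 792 ends (4.17%, 2.89 to 5.80), and its highest other overlap was 2.65%. For L1_Mur3, with 41 of 2430 ends, the interval (1.21 to 2.28) took in its highest other overlap, 1.28%. L1VL4 ends had a partner within their own name in 13.9% against 5.63%, L1_Mm in 23.2% against 10.9%, and L1_Mur3 in 1.69% against 0.942%. The names differ in their number of ends, so these ratios within a name do not share a target. Against all members, L1_Mus3 and L1_Rod both had a ratio of 1.52. L1_Mur3 had the smallest ratio against all members, 1.19 (10.1% against 8.53%), and L1VL2 the largest, 1.78. Partners were also found in the other lists, for 28.4% of the ends in L1Md_F against 18.5%, for 20.9% in young L1 against 12.8%, for 21.9% in Lx against 14.4%, and for 6.67% in ancient L1 against 4.75%.

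Strand was read by placing the members on a transcript with intact L1 frames. Gm47164 (chromosome 10, 103207748 to 103213437, minus strand) is annotated as 1 unspliced exon of 5690 nt that awaits experimental support, and it holds an ORF1 of 371 codons and an ORF2 of 1281 codons on its own strand. With up to 3 mismatches 18549 members (26.6%) were placed, 12214 antisense and 6335 sense, so that 65.8% (65.2 to 66.5) were antisense. Placement favoured members close to this copy: 63.9% of L1_Mm but 1.76% of L1_Mur3 sequences were placed, and 0 of 893 L1_Rod sequences, which allows a share of up to 0.336%. Among the names with more than 1000 placed sequences the antisense share was 74.7% in L1_Mus4, 67.5% in L1_Mus3, 66.4% in L1_Mus2, 62.9% in L1_Mus1 and 60.7% in L1_Mm. With fewer placed it lay between 77.9% (73.8 to 81.7) in L1VL1 and 52.8% (38.6 to 66.7, 53 sequences) in L1_Mur3. The share was 76.4% for sequences at 1 position (5.52% of them placed) and 59.7% for those at more than 100 (69.7% placed). The other lists had 48.3% antisense in young L1, 57.6% in L1Md_F and 66.0% in Lx, with 47.8%, 53.5% and 3.44% of their sequences placed. Ancient L1 had 37.9% (25.5 to 51.6) among the 58 sequences placed, 0.121% of that list. The value depended on the mismatches allowed: it was 53.9% with up to 1 mismatch and 68.7% with up to 4. Without a mismatch the direction turned round, with 735 antisense and 899 sense sequences. No mismatch was found in 14.2% of sense and 6.02% of antisense sequences, and 1 mismatch in 28.1% and 19.6%.

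The strands differed in their bases and in their modal length. T came first in 74.8% (74.0 to 75.5) of antisense and 52.5% (51.3 to 53.8) of sense sequences. A stood at position 10 in 39.4% (38.5 to 40.2) of antisense sequences, against 19.4% at position 9 and 18.6% at position 11, and in 54.5% (53.2 to 55.7) of sense sequences, against 36.8% and 37.3%. The coding strand of the template is 40.3% A and 19.98% T, and the bases along the sequences differed accordingly: over positions 12 to 24, antisense sequences had on average 38.7% T and 21.3% A, and sense sequences 19.8% T and 39.2% A. Relative to that, both strands carried both preferences. A at position 10 without T first made up 30.4% of sense and 13.5% of antisense sequences, and T first without A at position 10 made up 28.5% and 48.9%. The modal length was 29 nt in antisense and 27 nt in sense sequences. The mean lengths were close, 28.06 ± 1.98 nt in antisense and 28.08 ± 2.08 nt in sense sequences (SD). Lengths of 29 and 30 nt made up 34.03% of antisense and 30.8% of sense sequences. The gap was widest among sequences at 1 position (39.7% and 28.5%) and turned round among those at more than 100 positions (30.7% and 31.5%).

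**Figure D3:**
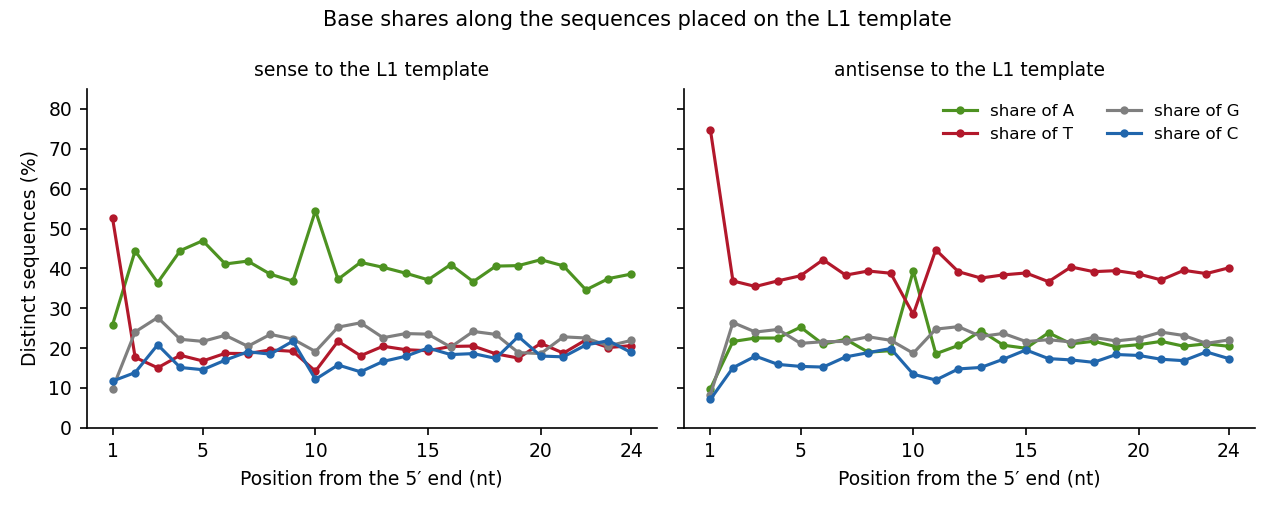
Percent of distinct sequences with each base at positions 1 to 24, for the 6335 sense (left) and 12214 antisense (right) members placed on the L1 template. T peaks at position 1 on both strands, and A peaks at position 10, at 54.5% in sense and 39.4% in antisense sequences.

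On the template, sense and antisense 5′ ends overlapped by 10 nt in 47364 pairs of sequences, against a mean of 19702 pairs (SD 1827) at overlaps of 11 to 20 nt, a ratio of 2.40. No other overlap from 1 to 24 nt had more than 23382 pairs. Of the sense sequences, 75.1% had an antisense partner at 10 nt, against a mean of 57.4% (SD 1.91) at the other overlaps. This count uses the positions of the 5′ ends and compares no bases of the partners with each other, but the template's own bases are the same for both strands, and the part of base preferences was again not tested.

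The members of 19 nt, shorter than piRNAs, showed a second offset. There were 3355 of them, against 2228 of 18 nt and 1643 of 20 nt. The ratio of 19 to 20 nt was 2.04, and 2.49 in young L1, 2.38 in L1Md_F, 1.49 in Lx, 1.05 in ancient L1 and 1.16 in the whole series. Among the 12 names it lay between 1.73 (L1VL1) and 2.63 (L1_Rod). Sequences of 19 nt were also more numerous than those of 18 nt in 9 names, but not in L1_Mur2 (135 and 190), L1_Mur3 (153 and 230) or L1_Rod (50 and 75), which had no peak at 19 nt. Of the 19 nt members, 29.3% (27.8 to 30.9) lay on the strand opposite a member of 24 to 33 nt with their 3′ end across from its position 11, against a mean of 18.9% (SD 1.04) and a highest value of 20.5% at the 14 other offsets. Position 11 is the first base beyond the ping-pong cut, on the side of the guide's 3′ end. Sequences of 20 nt gave 18.6% against 14.9%, and those of 18 nt 10.9% against 9.86%. T came first in 37.1% of the 19 nt members.

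On the template 1553 members of 19 nt were placed with up to 2 mismatches, 730 antisense and 823 sense, or 47.0% antisense (44.5 to 49.5). With the same limit 61.4% of the members of 24 to 33 nt were antisense. The base after their 3′ end was the 5′ end of a longer member of the same strand for 60.3% (57.8 to 62.7), against a mean of 47.0% (SD 2.63) and at most 51.8% at the other offsets. In the other lists, the 3′ end lay across from position 11 of a longer sequence of the same list in 58.1% of 19 nt sequences against 42.5% at the other offsets in young L1, in 45.1% against 32.04% in L1Md_F, in 10.2% against 7.06% in Lx and in 2.29% against 1.34% in ancient L1.

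**Figure D4:**
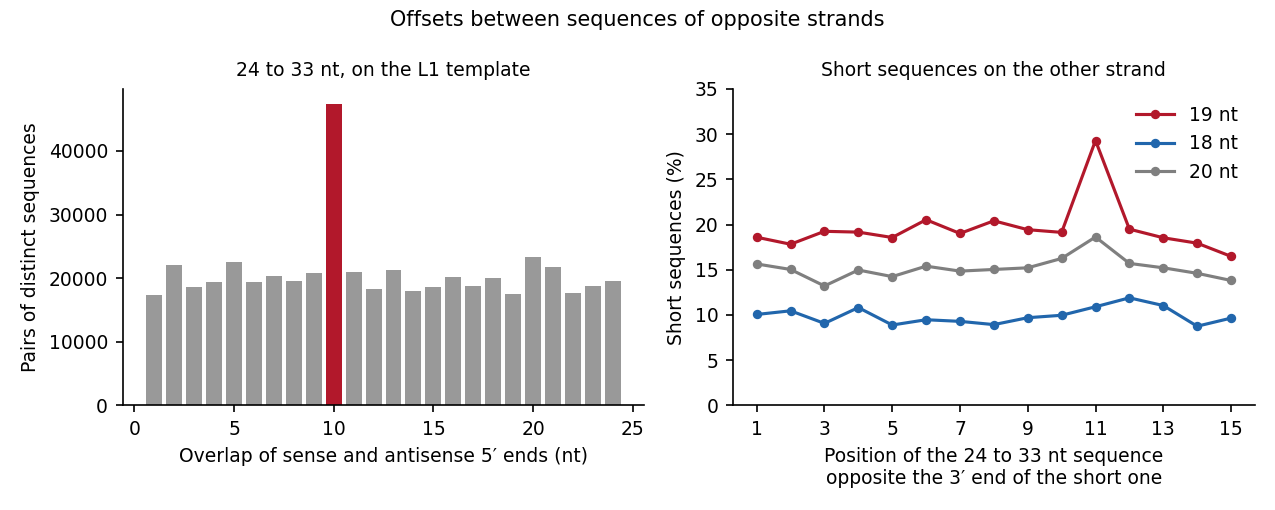
Left, pairs of distinct members of 24 to 33 nt by the overlap in nt of their sense and antisense 5′ ends on the L1 template; right, percent of short members (red 19 nt, blue 18 nt, grey 20 nt) whose 3′ end lies across from each position of a longer member of the opposite strand. The bar at 10 nt reaches 47364 pairs, and the 19 nt line peaks at position 11 with 29.3%.

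The placed sequences were unevenly spread along the element. The last of 3 equal parts of ORF2 had the highest density, with 3842 antisense and 2342 sense sequences per kb. The first part of ORF2 had 1642 and 542 per kb, and ORF1 had 1475 and 800 per kb. Downstream of ORF2 the strands were nearly balanced, with 1590 antisense and 1541 sense sequences per kb (50.8% antisense), against 67.9% antisense over ORF2 and 64.8% over ORF1. The richest antisense position, at 4696 nt in ORF2, held 79 sequences of 10 names, and 21 sense sequences lay across from it at an overlap of 10 nt. The richest sense position, at 4981 nt, held 66 sequences, with 15 antisense sequences across from it. Rich positions did not all have many partners. The next richest antisense positions, at 5159, 4692, 4697 and 5080 nt, had 0, 2, 21 and 4 sense sequences across from them. The next richest sense positions, at 640, 4779, 5662 and 4012 nt, had 10, 14, 8 and 29 antisense ones. Sequences at the same position share most of their bases, so their base shares are not described further. The 340 richest of 2671 antisense positions, and the 289 richest of 2009 sense positions, held as many sequences as all the others of their strand.

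**Figure D5:**
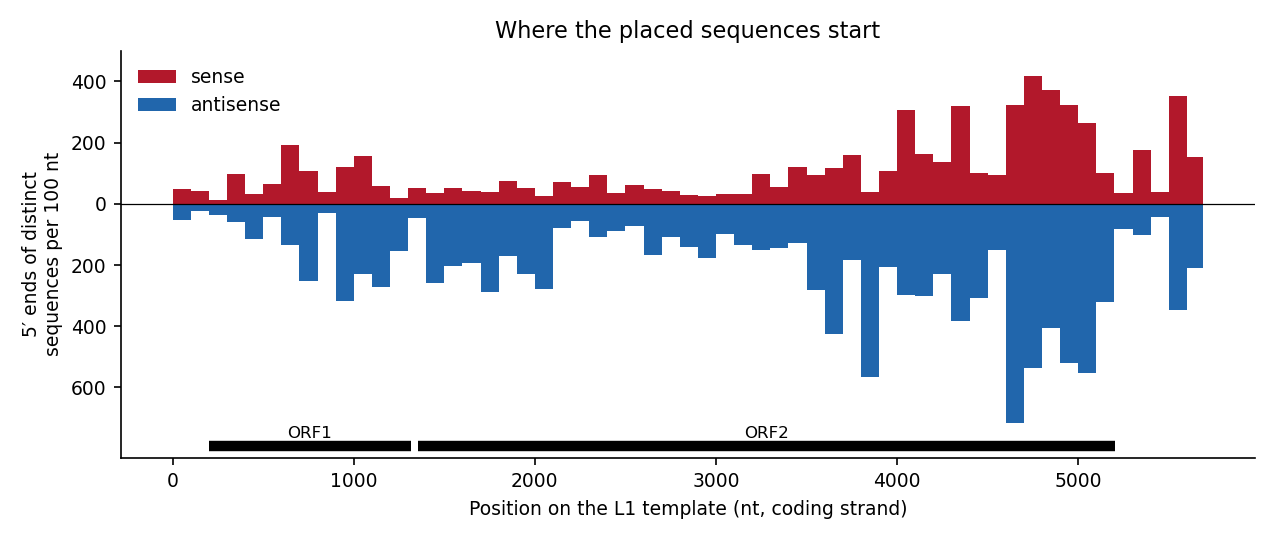
Number of distinct members whose 5′ end lies in each 100 nt of the L1 template, sense above and antisense below the line, with ORF1 and ORF2 as black bars. Both strands are densest in the last part of ORF2, and antisense sequences outnumber sense ones over most of ORF1 and ORF2.

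Few members at 1 position could be assigned to an annotated transcript. Of 29343 such members, 1735 (5.91%) matched transcripts of exactly 1 gene, in 177 genes, and 95.0% (93.9 to 96.0) of them, 1649, ran in the direction of that gene. The matches were concentrated, since 3 genes held 66.3% of them. The sense share leaned on these 3: 1700097M23Rik had 558 sense and 0 antisense members, D10Wsu102e 446 and 1, and AC140207.2 146 and 0. All genes together had 86 antisense members. As transcripts cover little of the repeats, the members outside them were not located here.

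1700097M23Rik (chromosome 6, 81893818 to 81895339, minus strand), an unspliced transcript that awaits experimental support, had 558 sense and 0 antisense members, which allows an antisense share of up to 0.538%. All of them were annotated L1_Mur3 and made up 18.5% of that name. They covered 565 nt without a gap, from 355 to 919 nt of the transcript, started at 239 positions, began with T in 77.4% and had A at position 10 in 21.5% (18.2 to 25.2). L1_Mur3 without them still had A at position 10 in 27.7% (25.9 to 29.5), against 26.8% and 29.7% at positions 9 and 11.

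D10Wsu102e (chromosome 10, 83360221 to 83488505, plus strand), a protein-coding gene, had 446 sense members and 1 antisense member. All 446 lay in its annotated 3′ untranslated region, which is 122586 nt long. They belonged to L1_Mm (223), L1_Mus1 (214) and L1_Rod (10), counting the antisense member. T came first in 79.2% and A stood at position 10 in 32.7% (28.3 to 37.2). Of these members 36 could be placed on the L1 template, all of them antisense to it (90.3% to 100%): at these the gene's own strand is the antisense strand of L1.

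In neither gene did 3′ ends meet the next 5′ end more often than at other distances. In 1700097M23Rik 41.5% of 3′ ends were followed at once by a member's 5′ end, against a mean of 43.3% (SD 1.73) at distances up to 20 nt, and in D10Wsu102e 8.79% against 8.17% (SD 1.69). The base after the 3′ end was T in 39.0% and 39.6%, where T made up 41.1% and 38.0% of the covered bases. In D10Wsu102e the 4 bases that follow had T in between 32.1% and 35.4%, below the 39.6% (34.5 to 44.8) right after the 3′ end, and in 1700097M23Rik in between 39.3% and 44.3%.

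The other genes held fewer members. AC140207.2, a long noncoding RNA of chromosome 18 (67066578 to 67084380), had 146 L1_Mus2 members, all sense, of which 48.6% (40.3 to 57.0) began with T. Zfp369 (chromosome 13, 65278814 to 65304221), a zinc-finger gene, had 67 sense and 2 antisense L1_Mus1 members. Gm26782 (chromosome 14, 50870324 to 50880603), an antisense RNA, had 30 L1_Mur1 members, all sense. Of the remaining genes, 99 had 1 member each.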

How the data were processed

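Per the labels, 8 small RNA libraries were made from testes by ligating linkers and amplifying by PCR. The deposited values come from 1 table that pools them. Per the file headers, it gives each distinct sequence, the number of positions it mapped to (a whole number in no standard unit) and an annotation. The aligner, the genome build, the order of annotations and any read minimum are not given in the sources used here. None of its 3 columns names a library, so depth is unknown.

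Members were taken by name and, for base shares, by length (24 to 33 nt). They were matched exactly to both strands of 141767 GENCODE M21 transcripts (GRCm38), which are spliced. The planned search of a genome, its windows of 10 kb included, was not done, and introns were not searched. All 12 names, the 5 genes with most members matching at 1 position, and pairs overlapping by 10 nt outside chromosome 18 are named; 2 such sites were found of 3 planned. The template for strand was the longest single-exon transcript among 12 that are not protein-coding, match at least 150 members and hold a frame of at least 1200 codons with the aspartate motif of L1 reverse transcriptases, and 2 longer, spliced ones served as alternatives. Members of 19 nt were compared over 13 bases.

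Members and lists were chosen with earlier results of these data known. Counting was tested on simulated data. Python 3.11.15, pandas 2.3.3, SciPy 1.17.1, numba 0.67.0 and Biopython 1.88 were used.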

Additional observations from a re-analysis of the deposited data

Results flagged for a closer look

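Members outside the labelled size range of 19 to 33 nt entered no measurement above except the length profile and the comparison of 18 with 19 nt. There were 11135 members of 15 to 18 nt, 12.2% of all members, of which 32.5% (31.6 to 33.3) began with T and 8.92% mapped to 1 position. Sequences of 15 nt made up 4.27% of the members and 1.68% of the whole series, and those of 18 nt 2.43% and 2.45%. By name, the share of 15 nt lay between 2.01% (L1_Mus2) and 17.7% (L1_Rod). There were 281 members of 34 to 36 nt, 0.307% of all members, of which 60.9% (54.9 to 66.6) began with T and 45.9% (40.0 to 51.9) had A at position 10. Outlying libraries and differing groups could not be looked for in a pooled list.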

How the results depend on the processing

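Among members at 1 position, 29343 in all, T came first in 78.8%, A stood at position 10 in 32.4%, and 15.2% of 5′ ends had a partner at 10 nt, against 8.21% at other overlaps. With each 5′ end counted once the shares were 70.9% and 36.04%, and 62.0% of placed ends were antisense. With a window of 25 to 32 nt T came first in 74.5% and 34.1% of ends had a partner. Partners sought in all L1 and Lx sequences were found for 52.1% of ends, against 39.4% at other overlaps. That window held 66215 sequences, with A at position 10 in 37.03%, inside the interval of the main value. The mean length was 28.10 nt in that window and 27.91 nt among members at 1 position, against 27.98 nt in the main setting.

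The following alternatives were chosen after seeing the data. The antisense share was 53.9%, 61.4% and 68.7% with up to 1, 2 and 4 mismatches, 66.9% on Gm47578 and 66.3% on Gm26905. The ratio for 19 nt members opposite position 11, 1.55, was 1.41 with 11 and 1.64 with 15 bases compared. No paired analysis was possible because the list carries no library and the result comes from no test. No replicate could be left out for the same reason. Windows of the genome were not run, as no genome sequence was used. The unknown depth limits every number of distinct sequences.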
